A study of Columba livia with 16 samples.

Results

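H3K27ac in the hindlimb bud was compared with H3K27ac in the forelimb bud of the Indian fantail, a breed of domestic pigeon whose feet carry small muffs of feathers. The comparison rested on all peaks of the breed, the 22407 peaks of the hindlimb list and the 15357 peaks of the forelimb list, which are 37764 of the 73059 peaks of the 4 lists of the series. The other 35295 peaks were called in hindlimbs and forelimbs of the racing homer, a scale-footed breed, and were used as a comparison from the other breed. Both breeds were sampled at Hamburger-Hamilton stage 25, with no treatment named in the labels, and each list stands for 2 libraries made with an antibody against H3K27ac and 2 libraries of input chromatin. The number of embryos behind a library is not stated in the labels.

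Acetylation of lysine 27 of histone H3 is found at active enhancers and promoters, so a region acetylated in one limb and not in the other is a candidate for limb-specific regulation. Hindlimb and forelimb buds share most of their patterning genes, and a few transcription factors distinguish them. *Pitx1* encodes a homeobox factor of the hindlimb, *Tbx5* encodes a T-box factor of the forelimb, and *Tbx3*, the neighbour of *Tbx5*, encodes a T-box factor that both limbs use.

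A single list was deposited per limb, so no difference below has an error between replicates and none could be tested. Each share has a 95% Wilson interval, which holds for counting error alone, since neighbouring peaks are not independent and the sequencing depth behind the lists is unknown. Each peak has a score from the peak caller. Its scale is not stated in the sources used here, it is at least 50 in every list, and many strong peaks share a value of exactly 3100 (169 fantail hindlimb peaks and 59 fantail forelimb peaks). Scores were used to rank peaks within a list and were not compared between lists. Positions are those of the scaffolds as the deposited lists number them. Apart from the loci at which the study places genes, no gene is named for a region, and the tissue could not be checked against marker genes, because no annotation of these scaffolds was used.

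Most fantail forelimb peaks had a hindlimb counterpart, and a large minority of hindlimb peaks had no forelimb counterpart. Of the hindlimb peaks, 9393 (41.9%, interval 41.3 to 42.6%) did not overlap a forelimb peak by even 1 bp, against 1939 forelimb peaks (12.6%, interval 12.1 to 13.2%) without a hindlimb peak. In racing homer the same shares were 32.0% of 18821 hindlimb peaks and 20.0% of 16474 forelimb peaks. The fantail hindlimb list was also the longer list, with 1.46 times as many peaks and a covered length of 48.4 Mb, against 33.1 Mb in the forelimb list, and the mean peak width was 2161 bp in hindlimbs and 2154 bp in forelimbs. Counted in bases, 27.9 Mb lay in peaks of both limbs, 20.5 Mb in the hindlimb alone and 5.15 Mb in the forelimb alone. The longer list and the larger share cannot be told apart from unequal depth or enrichment of the libraries. For lists of equal size every list was cut to its 15357 highest-scoring peaks, the number in the fantail forelimb list. Of the fantail lists only the hindlimb list lost peaks (scores of at least 88.4 were kept), and both racing homer lists were cut as well. The shares then came to 26.6% of hindlimb peaks and 22.5% of forelimb peaks. The covered lengths came to 39.6 Mb in hindlimbs and 33.1 Mb in forelimbs. Weak hindlimb peaks were thus removed as partners, while weak forelimb peaks were kept.

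The limb-only peaks were mainly the weak peaks of each list. Their median score was 81.2 in hindlimbs, against 242 for shared hindlimb peaks, and 69.5 in forelimbs, against 134 for shared forelimb peaks. In the decile of the hindlimb list with the lowest scores, 80.9% of peaks were hindlimb-only (interval 79.3 to 82.5%), and in the decile with the highest scores 0.625% were (14 of 2241 peaks, interval 0.373 to 1.05%). The forelimb list had 32.6% limb-only peaks in its lowest decile (interval 30.3 to 34.96%) and 1.11% in its highest (17 of 1536 peaks, interval 0.692 to 1.77%). A limb-only call among strong peaks was therefore rare in both limbs, and in the highest decile the intervals of the 2 limbs overlapped. Of the 215 hindlimb peaks of at least 10 kb, 6 were hindlimb-only, and of the 109 such forelimb peaks 3 were forelimb-only.

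**Figure D1:**
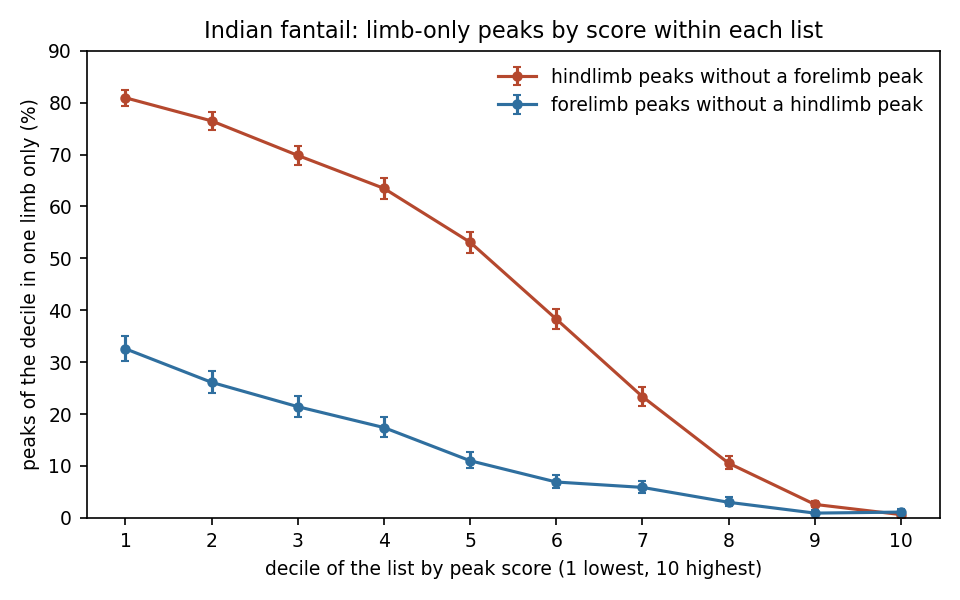
Share of Indian fantail peaks called in one limb only (vertical axis, percent) by decile of peak score within each list (horizontal axis), for hindlimb peaks (red) and forelimb peaks (blue), with 95% Wilson intervals. The hindlimb share is 80.9% in the lowest decile and 0.625% in the highest, and the forelimb share is 32.6% in the lowest and 1.11% in the highest.

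Limb-only peaks were also narrower than shared ones. A wider peak meets a 1-bp overlap more easily, and shared peaks were the stronger ones, so width was not separated from either. The median width was 1303 bp for hindlimb-only peaks (quartiles 920 and 1770 bp) and 1396 bp for forelimb-only peaks (quartiles 1077 and 1802 bp), against 2098 bp for shared hindlimb peaks and 1782 bp for shared forelimb peaks. Few calls lay within 100 bp of the limit of sharing. Among hindlimb peaks, 195 limb-only peaks ended within 100 bp of a forelimb peak and 56 shared peaks overlapped one by less than 100 bp. Among forelimb peaks the numbers were 50 and 17. Within 1 kb of a peak of the other limb lay 1373 hindlimb-only peaks (14.6%) and 288 forelimb-only peaks (14.9%). The nearest peak of the other limb lay at a median distance of 11.2 kb from hindlimb-only peaks and 8.35 kb from forelimb-only peaks.

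The excess of hindlimb peaks was spread over the scaffolds examined. All 102 scaffolds with at least 100 peaks in the lists together, which hold 59.2% of all fantail peaks, had more hindlimb than forelimb peaks, with a median ratio of 1.43 (quartiles 1.33 and 1.54). The ratio was highest on scaffold 391, with 124 hindlimb peaks and 66 forelimb peaks (1.88), followed by scaffold 209 (109 and 61 peaks, 1.79) and scaffold 72 (135 and 77 peaks, 1.75). It was lowest on scaffold 46, with 53 hindlimb peaks and 51 forelimb peaks (1.04), then on scaffold 100 (93 and 88 peaks, 1.06) and on scaffold 31 (157 and 142 peaks, 1.11). In racing homer the ratio was 1.19, 1.375 and 1.25 on scaffolds 391, 209 and 72. On scaffolds 46, 100 and 31 it was 0.944, 1.04 and 0.953 in that breed. Limb-only were 43.0% of the hindlimb peaks and 28.4% of the forelimb peaks of scaffold 100, and 22.6% and 19.6% of those of scaffold 46, against 41.9% and 12.6% over the whole lists.

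**Figure D2:**
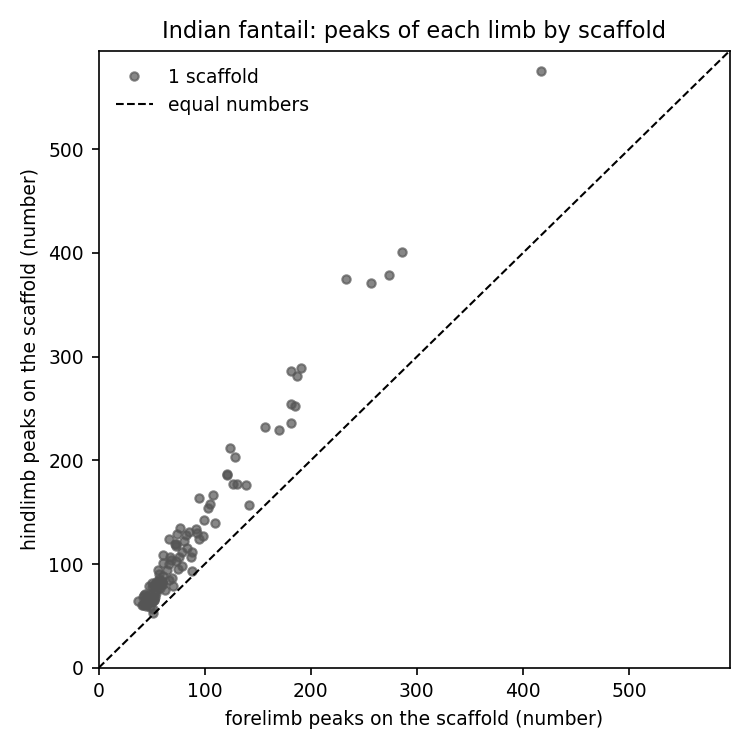
Number of Indian fantail hindlimb peaks (vertical axis) against number of forelimb peaks (horizontal axis) on each of the 102 scaffolds with at least 100 peaks in both lists together, 1 point per scaffold; the dashed line marks equal numbers. Every point lies above the line, with ratios of hindlimb to forelimb peaks between 1.04 and 1.88.

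Where both limbs were acetylated, the hindlimb peak was more often the wider one. Overlapping peaks were merged into 23827 regions, of which 11346 (47.6%) had exactly 1 peak in each limb. In these the median width was 2013 bp in the hindlimb and 1705 bp in the forelimb, and the median log2 ratio of hindlimb to forelimb width was 0.16 (quartiles -0.02 and 0.43). The hindlimb peak was wider in 71.8% of them, against 67.4% of 11234 such regions in racing homer, where the median log2 ratio was 0.12. At least 2-fold wider in the hindlimb were 584 regions (5.15%), and 96 (0.846%) were at least 2-fold wider in the forelimb. The largest differences in length were chosen after their values were seen. On scaffold 391 a hindlimb peak of 11.5 kb (1186418 to 1197960) lay over a forelimb peak of 1.88 kb, and on scaffold 893 a hindlimb peak of 1.78 kb lay within a forelimb peak of 9.05 kb (356216 to 365263). A region was split into several peaks in the forelimb and held by 1 peak in the hindlimb in 657 cases, and the reverse was found in 339.

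The 4 longest hindlimb-only peaks were also strong, with scores of 1129 or 3100. The longest single peak spanned 33.4 kb of scaffold 580 (150346 to 183710), had a score of 3100 and lay 9.22 kb from the nearest forelimb peak. It was next to another hindlimb-only peak of 2.52 kb, and peaks joined across gaps of at most 1 kb made a domain of 35.9 kb. Hindlimb-only peaks of 5.45, 2.26 and 5.43 kb followed on its far side. On its near side both limbs had a strong peak with like borders. The peak from 133926 to 139059 in the hindlimb (score 1351) matched a forelimb peak from 133948 to 139065 (score 1327). Within 50 kb of the centre of the 33.4-kb peak, hindlimb peaks covered 74.3 kb and forelimb peaks 17.9 kb. In racing homer hindlimbs 98.1% of the peak was covered, with 1 peak of 29.1 kb at a score of 3100, and racing homer forelimbs had no peak on it.

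On scaffold 922, 3 hindlimb-only peaks of 20.6 kb (163372 to 183991), 7.31 kb (184038 to 191345) and 6.802 kb (191561 to 198362) followed each other and made a domain of 34.99 kb. Their scores were 1129, 3100 and 1654, and the nearest forelimb peak lay 2.96 kb beyond the third. On scaffold 265, 2 hindlimb-only peaks with scores of 3100 formed a domain of 24.9 kb, 6.54 kb from 1498960 to 1505500 and 18.2 kb from 1505613 to 1523814. No forelimb peak lay within 26.0 kb of the longer one. The racing homer hindlimb list had peaks at both places. Some had almost the same borders, from 191582 to 198437 on scaffold 922 and from 1505615 to 1523797 on scaffold 265. Over the 20.6-kb peak it had 2 peaks, from 164252 to 166871 and from 166923 to 183968. The racing homer forelimb list had no peak over these 5 fantail peaks.

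The third longest hindlimb-only peak, 18.8 kb of scaffold 79 (6978330 to 6997097, score 3100), lay in the *Pitx1* window and was the one farthest from a forelimb peak among the 10 longest, with 91.8 kb to the nearest forelimb peak. It is described with that window.

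**Figure D3:**
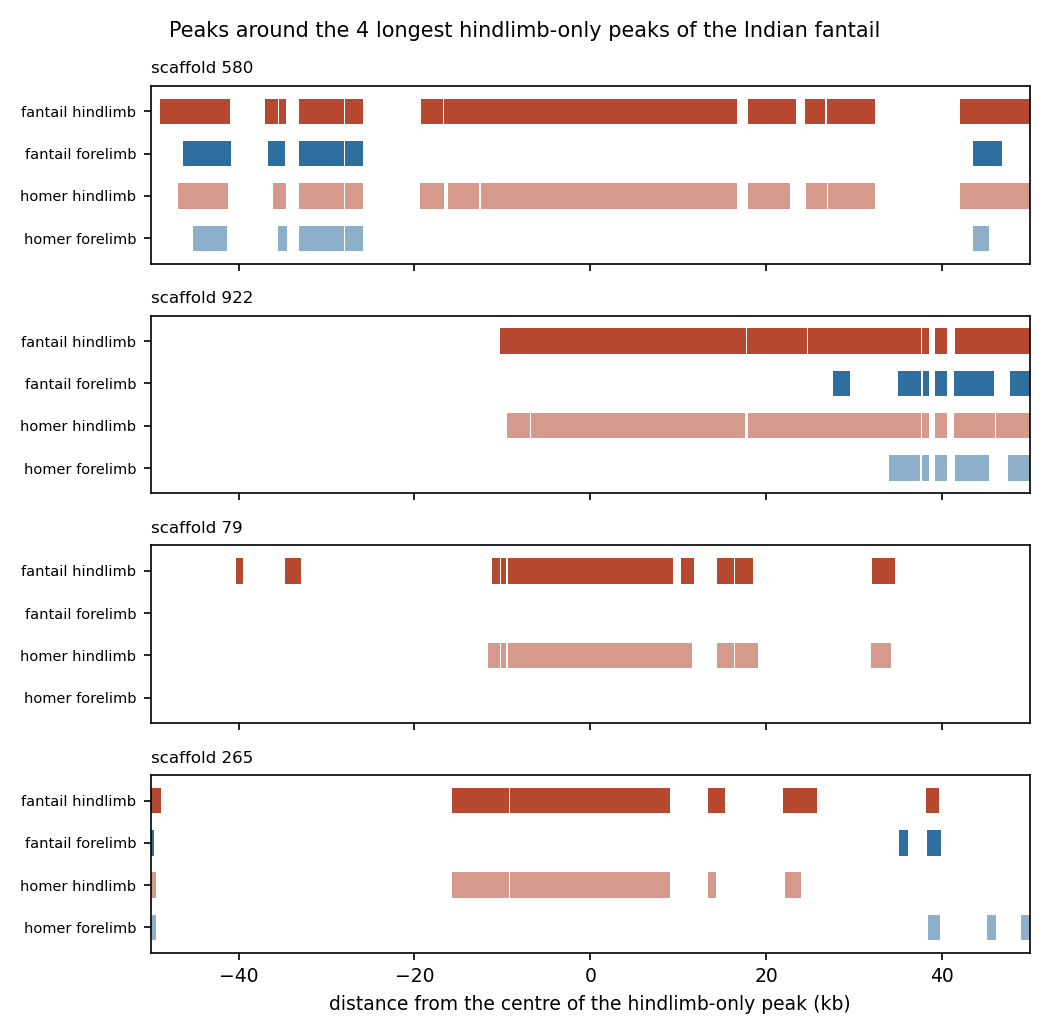
Peaks within 50 kb of the centre of the 4 longest hindlimb-only peaks of the Indian fantail (horizontal axis, distance in kb), on scaffolds 580, 922, 79 and 265 from top to bottom. Bars are peaks, in the rows fantail hindlimb, fantail forelimb, homer hindlimb and homer forelimb; each central domain is present in the hindlimbs of both breeds and in the forelimbs of neither.

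The 10 longest forelimb-only peaks all lay within 7.88 kb of a hindlimb peak. The hindlimb list has more peaks, and the 10 longest hindlimb-only peaks lay 2.185 to 91.8 kb from a forelimb peak. The longest forelimb-only peak, 23.0 kb of scaffold 7 (10358702 to 10381692), had a score of only 124 and lay 2.18 kb from the nearest hindlimb peak. Between long peaks present in both limbs, it lay beside a forelimb-only peak of 3.155 kb (10353681 to 10356835, score 524). That neighbour was forelimb-only in racing homer too. Racing homer forelimbs had no peak over the 23.0-kb peak, and racing homer hindlimbs had 1 of 4.21 kb at its end (10377750 to 10381961). On scaffold 34, forelimb-only peaks of 13.0 kb (7275547 to 7288550, score 1400), 5.74 kb and 7.19 kb made a domain of 26.8 kb. It began 0.089 kb after a hindlimb peak that ended at 7275457, and the next hindlimb peak began at 7305096. Both racing homer lists had peaks over this domain, of 8.36 kb in hindlimbs (score 1309) and 10.5 kb in forelimbs (score 1395) at its start. On scaffold 693, 6 forelimb-only peaks joined into 26.9 kb, with a longest peak of 10.18 kb (2079946 to 2090121, score 957), and a racing homer hindlimb peak of 11.97 kb and a forelimb peak of 9.54 kb lay over that longest peak. On scaffold 218 a 9.15-kb forelimb-only peak (678153 to 687298, score 1086) was likewise covered in racing homer, by peaks of 8.84 kb in hindlimbs and 6.45 kb in forelimbs. Among the 10 longest, forelimb-only in both breeds were the 9.40-kb peak in the *Tbx5* window and a 7.36-kb peak of scaffold 699 (1101160 to 1108523, score 749).

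The 10 longest peaks of each limb were set beside the racing homer lists, and this contrast of small counts was not tested. Of the 10 hindlimb-only peaks, which were 6.802 to 33.4 kb long, 6 were hindlimb-only in racing homer, 4 were present in both racing homer limbs and 0 were forelimb-only. Of the 10 forelimb-only peaks, which were 7.19 to 23.0 kb long, 2 were forelimb-only in racing homer, 7 were present in both limbs and 1 was hindlimb-only. Peaks of the same domain, as on scaffold 922 in hindlimbs and scaffold 34 in forelimbs, were counted separately. With peaks joined across gaps of at most 1 kb, the 10 longest hindlimb domains differed less. Those of scaffolds 580, 922, 265 and 79 were hindlimb-only in racing homer. Those of scaffolds 150, 836, 274, 94 and 101 (8.87 kb) were in both limbs, and another of scaffold 101 (8.49 kb) was in neither. Of the 10 longest forelimb domains, those of scaffolds 70 and 893 were forelimb-only, that of scaffold 7 was hindlimb-only and the rest were in both. The 4 hindlimb-only peaks present in both racing homer limbs lay on scaffolds 150 (16.7 kb, score 62.0), 836 (10.6 kb, score 167), 274 (9.49 kb, score 1596) and 699 (8.04 kb, score 82.7).

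**Figure D4:**
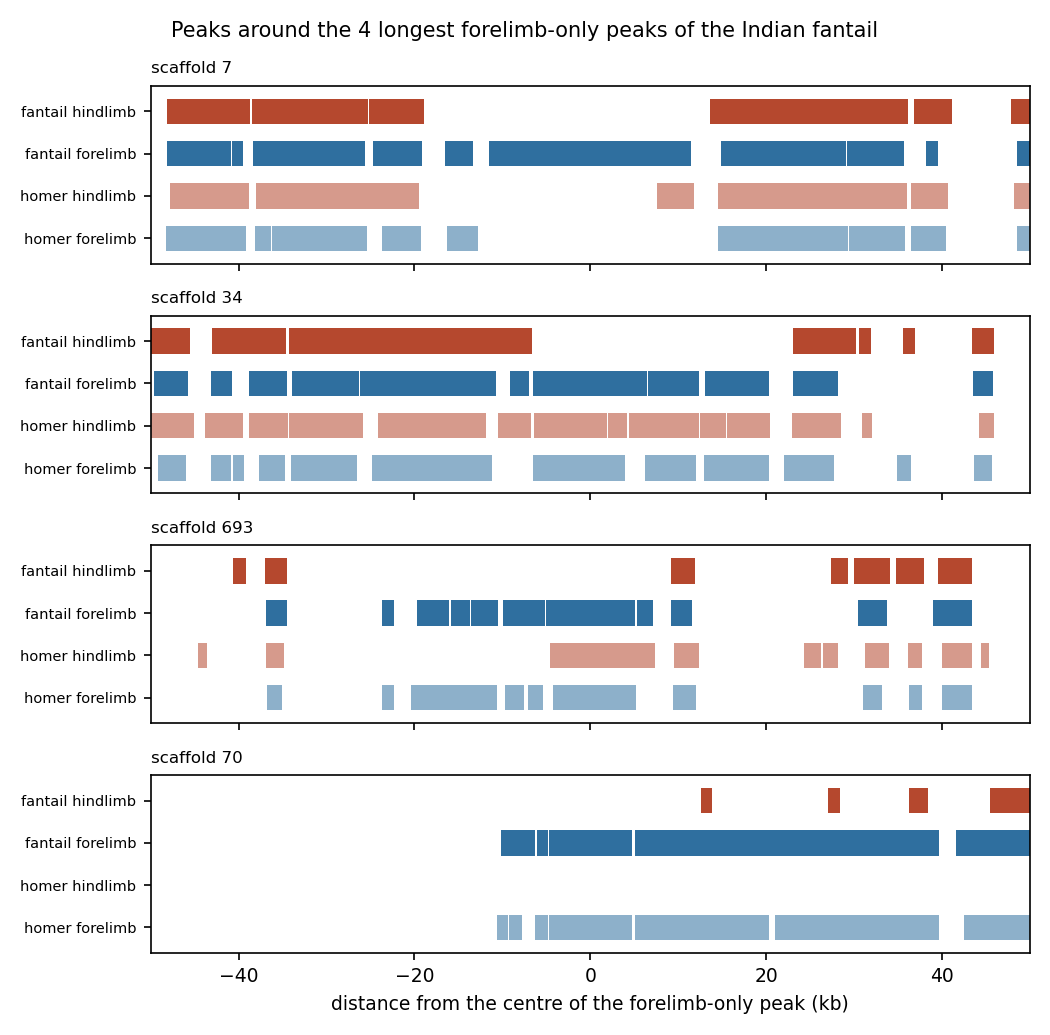
Peaks within 50 kb of the centre of the 4 longest forelimb-only peaks of the Indian fantail (horizontal axis, distance in kb), on scaffolds 7, 34, 693 and 70 from top to bottom. Rows are fantail hindlimb, fantail forelimb, homer hindlimb and homer forelimb; on scaffolds 34 and 693 both homer rows have peaks over the central forelimb-only peak, and on scaffold 70, in the *Tbx5* window, only the forelimb rows do.

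The 5 hindlimb-only peaks with the highest scores, all at 3100, lay on scaffolds 580, 79, 922 and 265 and were all hindlimb-only in racing homer. Among the 5 such forelimb-only peaks, the *Tbx5* peak at 3100 was forelimb-only in racing homer, and the peaks of scaffolds 34 (score 1400), 335 (313372 to 320558, score 1329), 7 (10926050 to 10931611, score 1211) and 893 (659294 to 664365, score 1138) were present in both racing homer limbs. Taking all limb-only peaks in the highest decile of each list, a set chosen after values had been seen, 11 of 14 hindlimb-only peaks were hindlimb-only in racing homer and 3 were in both limbs, whereas 4 of 17 forelimb-only peaks were forelimb-only in racing homer and 13 were in both limbs. The 14 peaks lay on 8 scaffolds and the 17 on 12, and neighbouring peaks of the same domain were counted separately. None of the 14 lay within 1 kb of a forelimb peak, against 14.6% of all hindlimb-only peaks. Within 1 kb of a hindlimb peak lay 4 of the 17, against 14.9% of all forelimb-only peaks. The same count made from the racing homer lists gave 8 of 8 strong hindlimb-only peaks that were hindlimb-only in the fantail, and 4 of 11 strong forelimb-only peaks that were forelimb-only in the fantail, the other 7 being in both fantail limbs.

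Acetylation around *Pitx1* was biased to the hindlimb. The window on scaffold 79, which ends at 7 Mb and also holds *H2afy*, the gene of a histone variant, had 16 fantail hindlimb peaks covering 61.4 kb and 6 forelimb peaks covering 14.0 kb. Of these 16 hindlimb peaks 11 were hindlimb-only, against 41.9% of the whole hindlimb list, and 0 of the 6 forelimb peaks were forelimb-only, against 12.6% of the whole forelimb list. The forelimb peaks lay in the first part of the window. The 6 forelimb peaks, with scores between 53.3 and 508, ended at 6886484, and each lay on a hindlimb peak, the strongest pair being a forelimb peak of 4.73 kb (score 508) under a hindlimb peak of 8.61 kb (score 872). From there on only hindlimb peaks were called, including the 18.8-kb peak, a short peak of 0.588 kb beside it (6977561 to 6978148, score 903) and, past the window's end, a peak of 1.89 kb (7002172 to 7004064, score 741). These belonged to the longest run of consecutive hindlimb-only regions in the fantail genome, 14 regions over 127 kb (6947449 to 7074125). Racing homer had 15 hindlimb and 8 forelimb peaks in the window, and its hindlimb peak at the 18.8-kb peak was 20.9 kb long. At or above the median score of their list, 11 fantail hindlimb and 3 forelimb peaks remained. The interval before this window is the one that the study gives as deleted in the Indian fantail. In it the fantail lists had 0 hindlimb and 0 forelimb peaks, against 9 hindlimb peaks covering 35.3 kb and 4 forelimb peaks covering 10.1 kb in racing homer. No peak can be called where the DNA is missing, so the fantail counts give no information on acetylation there.

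The *Tbx5* window, at 0.64 to 0.76 Mb of scaffold 70, was biased to the forelimb but was not empty in the fantail hindlimb. It held 4 hindlimb peaks covering 13.2 kb and 9 forelimb peaks covering 69.1 kb, the longest forelimb peak being 34.6 kb (686952 to 721525), the longest of the whole fantail forelimb list. None of the 4 hindlimb peaks was hindlimb-only, against 41.9% of the whole list. The largest, 8.52 kb (727306 to 735823, score 1381), lay wholly within a 12.7-kb forelimb peak (723453 to 736159, score 3100), and the other 3, of 1.22, 1.27 and 2.16 kb with scores of 64.6, 54.2 and 177, lay within the 34.6-kb peak, of which a stretch of 13.3 kb (695673 to 708961) was bare of hindlimb peaks. Of the 9 forelimb peaks 7 were forelimb-only, against 12.6% of the whole list. The 5 from 671772 to 686575 were adjacent, including the peak of 9.40 kb with a score of 3100. Racing homer had 0 hindlimb peaks and 10 forelimb peaks in this window, covering 66.0 kb. Among fantail peaks at or above the median score of their list, 2 hindlimb and 5 forelimb peaks remained in the window.

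The adjoining *Tbx3* window, up to 0.8 Mb, had peaks at nearly the same places in both limbs. This likeness is one of number and borders, and scores were not compared between the limbs. It held 7 hindlimb peaks covering 21.8 kb and 8 forelimb peaks covering 23.4 kb. Each hindlimb peak had a forelimb counterpart, for example from 788309 to 794320 in the hindlimb (score 1329) and from 788269 to 794375 in the forelimb (score 1633). Another pair ran from 782402 to 786874 in the hindlimb (score 777) and from 782396 to 786869 in the forelimb (score 343). The only limb-specific peak was a weak forelimb peak of 1500 bp (766620 to 768119, score 58.7), which racing homer forelimbs also had.

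Limb-only peaks of the hindlimb lay together more often than those of the forelimb in the full lists. Limb-only peaks were chained where the gap between them was at most 10 kb. In hindlimbs 384 clusters of 3 or more held 1336 peaks (14.2%, interval 13.5 to 14.9%), and in forelimbs 28 clusters held 105 peaks (5.42%, interval 4.49 to 6.51%). With lists of equal size (4081 hindlimb-only and 3451 forelimb-only peaks, against 9393 and 1939) the order turned, with 4.68% in hindlimbs and 6.98% in forelimbs. The next peak of the list was limb-only for 46.3% of limb-only and 38.5% of shared hindlimb peaks, and for 21.5% of limb-only and 11.3% of shared forelimb peaks. Most limb-only peaks had no other within 10 kb, 61.8% in hindlimbs and 82.7% in forelimbs.

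The 5 named hindlimb clusters, out of 7 clusters with 7 peaks each, held no peak of the 2 highest score deciles of their list. The longest had 7 peaks each, over 39.3 kb of scaffold 523 (173050 to 212372), 37.6 kb of scaffold 244, 34.7 kb of scaffold 642, 34.1 kb of scaffold 232 and 27.7 kb of scaffold 455, and the highest score among their peaks was 335. Ranked below the named ones, a hindlimb cluster of 6 peaks on scaffold 79 had scores up to 3100. A forelimb cluster of 5 peaks on scaffold 70, also below the named ones, had scores up to 3100 as well. Of the 5 named forelimb clusters, 2 held a peak of the highest score decile of their list. The largest was the domain of scaffold 693 with a neighbour, 7 peaks over 30.9 kb (2061305 to 2092199, scores up to 957), of which 5 were forelimb-only in racing homer. A cluster on scaffold 218, 5 peaks over 23.8 kb with scores up to 1086, had all 5 peaks in both racing homer limbs. The others were 6 peaks on scaffold 618, 6 on scaffold 922 (239525 to 263258, scores up to 134), on the same scaffold as a long hindlimb domain, and 5 on scaffold 893. Parts of longer forelimb peaks were also free of hindlimb peaks, the longest being 15.6 kb on scaffold 893 (643614 to 659201) within a peak of 30.5 kb and 15.5 kb on scaffold 538 (810126 to 825669) within a peak of 16.8 kb.

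The racing homer libraries were not used to define the limb-only peaks, and the state of these peaks was looked up there. Of the fantail hindlimb-only peaks 27.8% (interval 26.9 to 28.7%) were hindlimb-only in racing homer and 7.84% (interval 7.31 to 8.40%) were forelimb-only there, against 10.3% and 5.92% of shared hindlimb peaks. Of the fantail forelimb-only peaks 26.4% (interval 24.4 to 28.4%) were forelimb-only in racing homer and 11.6% (interval 10.205 to 13.1%) were hindlimb-only, against 5.51% and 10.6% of shared forelimb peaks. No peak in either racing homer limb was found for 47.1% of the hindlimb-only and 46.5% of the forelimb-only peaks, against 6.12% and 5.81% of shared peaks. Those present in both racing homer limbs were 17.2% of hindlimb-only and 15.6% of forelimb-only peaks.

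**Figure D5:**
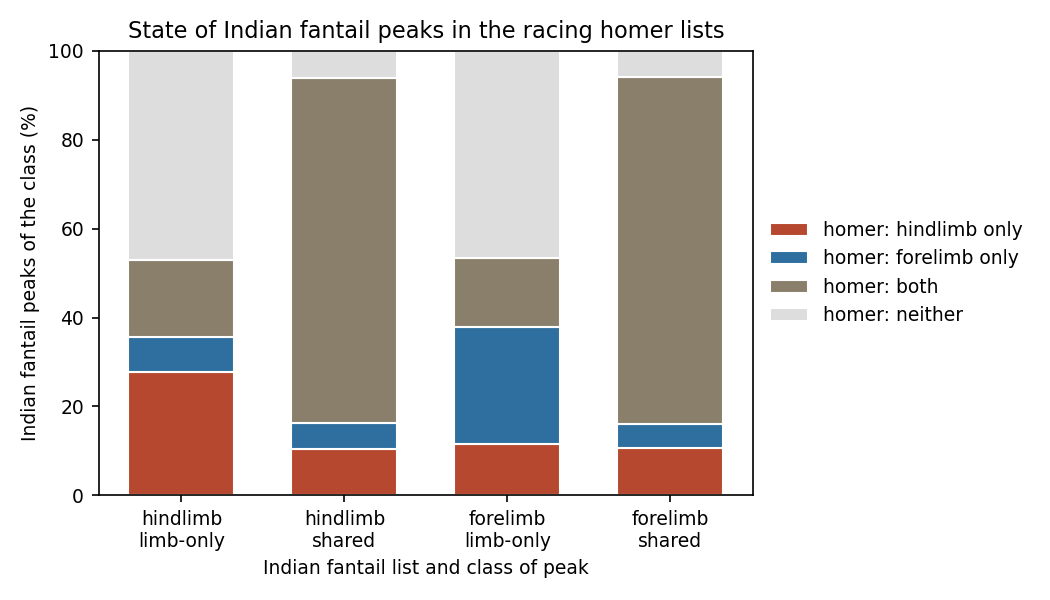
State in the racing homer lists (colours) of Indian fantail peaks, as percent of each class (vertical axis), for limb-only and shared hindlimb peaks (left) and limb-only and shared forelimb peaks (right). Hindlimb-only peaks are hindlimb-only in homer in 27.8% of cases and forelimb-only peaks are forelimb-only in homer in 26.4%, and 77.6% and 78.0% of shared peaks are present in both homer limbs.

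Presence in racing homer, in the same limb only or in both limbs, was more frequent among stronger limb-only peaks. Among hindlimb-only peaks the same state was found for 18.3, 24.3, 31.2 and 37.3% in the 4 equal parts from lowest to highest score, and among forelimb-only peaks for 14.9, 18.8, 29.1 and 42.7%. Presence in both racing homer limbs also became more frequent, with 7.20, 9.16, 16.7 and 35.9% of hindlimb-only peaks and 9.71, 11.96, 12.6 and 28.0% of forelimb-only peaks in the same parts. The opposite state was found for 7.96% of the lowest and 5.32% of the highest part of hindlimb-only peaks, and 13.8 and 7.01% for forelimb-only peaks. Peaks absent from both racing homer limbs were 66.5% of the lowest and 21.4% of the highest part of hindlimb-only peaks, and 61.6 and 22.3% for forelimb-only peaks. In the lowest part of forelimb-only peaks, the same state (14.9%, interval 11.98 to 18.3%) and the opposite state (13.8%) did not differ beyond counting error.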

How the data were processed

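The authors deposited 1 peak list per breed and limb, 4 in all, each with a score per peak, and the peaks were not called again. Every deposited list stands for 2 ChIP and 2 input libraries, with the inputs prepared as controls. How the libraries were combined, how the inputs entered the peak calling, the scale of the score and the sequencing depth are not given in the sources used here. The submitters' processing notes name CASAVA, Bowtie2 2.2.3, SAMtools, MACS 1.4.2 and MACS2 2.0.10.20130915 without their roles. The study's methods name MACS for plots of fold enrichment and MACS2 for regions that differed between the hindlimbs of the breeds. They do not say which program called the deposited lists. The genome build is not given in the sources used here. The deposited score was used only to rank and filter peaks within a list. Another 2 deposited tables hold the authors' own comparison of hindlimbs between the breeds, with a log10 likelihood ratio per region; these were not used.

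Peaks that overlapped by at least 1 bp were called shared. A list without a value per replicate allows no test, so shares carry 95% Wilson intervals for counting error. Clusters were chains of limb-only peaks with gaps of at most 10 kb. The state of a fantail peak in racing homer was read from overlaps of at least 1 bp with both lists of that breed. The *Pitx1*, *Tbx5* and *Tbx3* windows and the deleted interval follow the study's text and plots.

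Regions were named by a rule: the 10 longest and 5 highest-scoring limb-only peaks, 5 clusters and 5 uncovered stretches per limb, all peaks in the windows, and the 3 scaffolds at each end of the ratio of hindlimb to forelimb peaks. Peaks that adjoin a named one were described with it. The members, windows and rule were chosen with earlier results of these data known. As alternatives, sharing required 50% of both peaks, or the lists were limited to peaks at or above their median score, cut to equal size or merged across gaps of up to 1 kb. Others were cluster gaps of 5 or 20 kb, uncovered stretches in place of whole peaks, and windows counting only peaks with at least 50% inside. Python 3.11.15, numpy 2.4.6 and matplotlib 3.10.9 were used, and the procedures recovered the planted answers in 13 of 13 checks on simulated lists.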

Additional observations from a re-analysis of the deposited data

How the results depend on the processing

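No paired analysis was possible because each deposited list combines its replicates, and for the same reason no replicate could be left out. Of 87 values under an alternative 37 stayed within the counting interval of the reported value, or within 1.5 times for counts, lengths and ratios. The 37 include counts of 0 in the deleted interval that stayed 0. Only the median log2 width ratio and the ratio of covered lengths could change direction by the rule used, and neither did. No setting called peaks anew, so any effect of unequal depth on the called peaks would remain in both ratios. Shares, widths, lengths and counts cannot be negative. The cause of each shift was not tested beyond what the setting itself removes.

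The larger share of limb-only peaks in hindlimbs kept its direction under 4 of 4 alternatives. Only with lists of equal size did the hindlimb list not have more peaks, and it still covered more bases there (39.6 Mb against 33.1 Mb). A longer list tends to have the larger limb-only share. When sharing required 50% of both peaks, the shares were 49.2% of hindlimb and 25.9% of forelimb peaks, with lists of equal size 26.6 and 22.5%, with peaks merged within 1 kb 39.8% for hindlimbs, and with peaks at or above the median score 11.8% for forelimbs. Chaining at a fixed gap depends on the number of limb-only peaks. Hindlimb-only peaks far outnumbered forelimb-only peaks in every setting but lists of equal size (4081 and 3451). The share in clusters kept its order in 5 of 6, all except lists of equal size, and these 5 cannot separate clustering from number. It was 20.1% in hindlimbs and 15.4% in forelimbs with the 50% overlap, 4.68 and 6.98% with lists of equal size, 6.74 and 1.70% with merged peaks, 6.48 and 3.87% with gaps of 5 kb, 27.4 and 8.25% with gaps of 20 kb, and 6.996% in hindlimbs above the median score.

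Shared peaks were wider than limb-only peaks under each of the 4. None of these settings matched the classes by score, so width was not separated from peak strength. For hindlimb-only, shared hindlimb, forelimb-only and shared forelimb peaks the median widths were 1387, 2045, 1500 and 1811 bp with the 50% overlap, and 1976, 2879, 2216 and 2482 bp above the median score. With lists of equal size they were 1672, 2287 and, for shared forelimb peaks, 1860 bp, and with merged peaks 1392, 2466 and, for shared forelimb peaks, 1988 bp. The median log2 width ratio of shared regions was 0.14 with the 50% overlap, 0.14 above the median score, 0.18 with lists of equal size and 0.20 with merged peaks.

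The same state in racing homer stayed more frequent for limb-only than for shared peaks under 4 of 4. Shared peaks were not a matched reference, being stronger and mostly present in both racing homer limbs in the full lists. For hindlimb-only peaks the same state was found for 30.2% above the median score. For shared hindlimb peaks it was 15.3% with the 50% overlap, 9.05% above the median score, 8.73% with lists of equal size and 9.58% with merged peaks. For forelimb-only peaks it was 24.2% with the 50% overlap, 31.8% above the median score and 24.3% with merged peaks, and for shared forelimb peaks 7.42, 6.50 and 6.35% with the 50% overlap, above the median score and with lists of equal size. Above the median score 3 forelimb peaks remained in the *Pitx1* window, and 2 hindlimb and 5 forelimb peaks in the *Tbx5* window; with lists of equal size this last window held 2 hindlimb peaks.

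With 1 list per limb, unequal depth, enrichment or peak calling cannot be told apart from a difference between limbs, and a missing peak does not show that acetylation was absent.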
